A study of Mus musculus with 15 samples.

Results

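The genes described here carry out nucleotide synthesis, nucleotide salvage and the folate reactions that feed both. They came from a list of 37 genes chosen for these roles, and all 37 were found among the 20453 genes with a symbol in the deposited read table. Every one of the 37 also passed the filter on low counts. The study concerned MLL-AF9, a fusion of the histone methyltransferase gene MLL with AF9 that causes acute myeloid leukaemia, and sequenced RNA of mouse bone marrow cells sorted by flow cytometry. It compared leukaemias by their cell of origin, and 14 libraries are compared here.

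The groups were wtGMP (4 libraries, numbered 1 to 4), LTearly (4, numbered 1 to 4), LTlate (3, numbered 2, 3 and 4) and BMTGMP (3, numbered 1, 2 and 4). All carry the strain label C57BL/6 and one shared text on the animals, in which a human MLL-AF9 cDNA was targeted into A2Lox-cre cells, chimaeric mice were crossed back to C57BL/6, and double heterozygous females were used. The labels describe a gate for granulocyte-macrophage progenitors (negative for IL-7Rα, lineage markers and Sca-1, positive for c-Kit and Cd34, high for FcγRII/III) and one for long-term haematopoietic stem cells, both after depletion of cells bearing Ter119, Gr-1, B220, Cd11b or Cd5. The name wtGMP was taken to mean wild-type cells of the first gate. The labels do not spell out LTearly, LTlate or BMTGMP, and ages, any inducer given to the mice, the gate of each library and the number of mice behind it are not given in the sources used here. Nothing states that libraries of a group came from separate animals, so p-values measure the spread between these libraries, which may be partly technical. A further library carries LTearly in its title and LTlate in its column name, and it was left out of every comparison. Titles outside wtGMP also end in codes whose meaning is not given in the sources used here, and no fit used them. The code grV is shared by BMTGMP 1 and 2, grD2 by LTearly 1 and LTlate 3, and grLT3 by LTearly 3, LTlate 2 and this further library.

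Cells build purine rings step by step on an activated ribose called PRPP, build pyrimidines from aspartate and carbamoyl phosphate, and draw single carbons for purines and thymidylate from folate. Ribonucleotide reductase turns ribonucleotides into DNA precursors, and salvage enzymes recover bases and nucleosides that would otherwise be lost. Several drugs used against leukaemia, among them mercaptopurine and cytarabine, act on these routes or are activated by them.

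Levels below are CPM, a gene's share of all counts on named genes after TMM scaling, on the usual CPM scale. Tests are edgeR's quasi-likelihood test with p adjusted by Benjamini-Hochberg over all 14542 genes tested, and a gene was called at an adjusted p under 0.05. Fold changes are log2 values, first group minus second, with their standard error.

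Most of the 37 genes were lower in LTearly than in wtGMP, and fewer were called lower in LTlate and in BMTGMP. Against wtGMP, 25 of the 37 fell in LTearly (67.6%, beside 8.93% of all genes tested), 10 fell in LTlate (27%, beside 3.25%) and 6 fell in BMTGMP (16.2%, beside 2.17%). Those that rose numbered 2 in LTearly (5.41%, beside 11.1% of all genes), 1 in LTlate (2.7%, beside 7.53%) and 1 in BMTGMP (2.7%, beside 4.41%). The median log2 change of the 37 was -1.05 in LTearly, where the median of all genes was 0.22. It was -0.68 in LTlate, with 0.00 for all genes, and -0.28 in BMTGMP, with 0.07 for all genes. In 27 genes every LTearly library was below every wtGMP library (73%, beside 10.4% of all genes). The same held for LTlate in 22 genes (59.5%, beside 10.9%) and for BMTGMP in 12 (32.4%, beside 8.34%). These comparisons share the wtGMP libraries, so they are not independent of each other. The LTlate count was 4 without LTlate library 2 and 18 with DESeq2, and the BMTGMP count was 3 without BMTGMP library 2 and 2 without BMTGMP library 4.

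**Figure D1:**
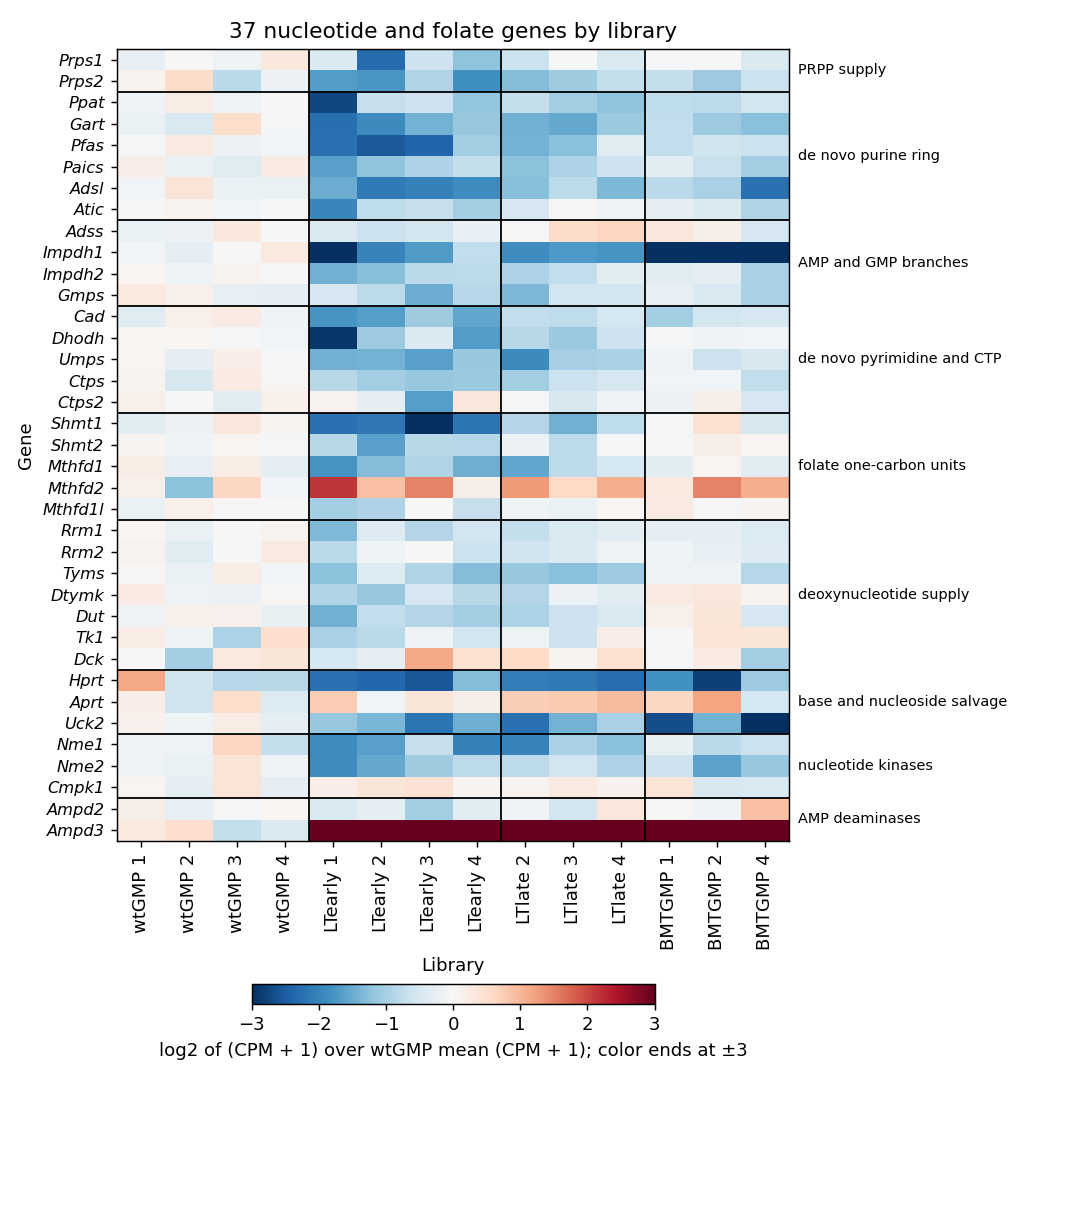
Level of each of the 37 genes (rows, grouped by role) in each of the 14 libraries (columns), as log2 of CPM + 1 over the wtGMP mean CPM + 1. Blue is lower and red is higher, and the color scale ends at 3 in either direction. The LTearly columns are blue in most rows, while Ampd3 is red in all 10 libraries outside wtGMP.

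Gart, Adsl, Hprt and Uck2 fell in all 3 comparisons with wtGMP, and Ampd3 rose in all 3. Paics, Gmps, Umps, Mthfd1, Tyms and Nme1 fell in LTearly and LTlate, and Nme2 fell in LTearly and BMTGMP. No call in any of these comparisons was made for Adss, Dhodh, Ctps2, Rrm2, Tk1, Dck, Aprt, Cmpk1 or Ampd2.

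Markers of other states differed between the groups too, and their part in the results below was not tested. The summed CPM of 8 progenitor markers, among them Mpo, Kit and Cd34 and none at 0 in any group, was 19393 to 22704 in wtGMP, 1246 to 6608 in LTearly, 1534 to 1944 in LTlate and 8118 to 11619 in BMTGMP. Of these 8, 7 fell in LTearly, 4 fell and 1 rose in LTlate, and 1 fell in BMTGMP. That 1 was Cd34, which the progenitor gate selects for, at 278, 255, 211 and 249.9 CPM in wtGMP and 4.18, 3.37 and 6.68 in BMTGMP. The summed CPM of 10 markers of maturing neutrophils, again none at 0, was 49.6 to 145.5 in wtGMP, 12665 to 25345 in LTearly, 5051 to 8948 in LTlate and 1397 to 6865 in BMTGMP. All 10 rose in LTearly and in LTlate, and 8 rose in BMTGMP. Eosinophil, basophil and mast cell markers, 5 in all, summed to 153.6 to 273 CPM in wtGMP, 8.51 to 30.9 in LTearly, 90.5 to 312 in LTlate and 2.72 to 6.97 in BMTGMP, and 2 fell in LTearly, 1 in LTlate and 4 in BMTGMP. Epx, Prss34 and Cpa3 were at 0 in every BMTGMP library, and Prss34 in every LTlate library. The 5 stem cell markers summed to 0 to 6.33 CPM in wtGMP, 22.5 to 47.9 in LTearly, 0 to 7.08 in LTlate and 1.30 to 24.4 in BMTGMP. None of the 4 that were tested was called by edgeR, with 2 higher in LTearly at an unadjusted p under 0.05, and Slamf1 was at 0 in wtGMP and LTlate and Procr in LTlate. Of all genes tested, 8.93% fell and 11.1% rose in LTearly, 3.25% fell and 7.53% rose in LTlate, and 2.17% fell and 4.41% rose in BMTGMP. In bulk RNA, fewer cells of a type and less RNA per cell cannot be told apart.

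Genes of cycling cells are given because nucleotide synthesis serves DNA replication. The summed CPM of 17 such genes outside the 37 was 11315 to 12056 in wtGMP, 8979 to 13550 in LTearly, 11395 to 13367 in LTlate and 12294 to 14147 in BMTGMP. The proliferation marker Mki67 alone made up 5836 to 6324 of it in wtGMP, 5849 to 9240 in LTearly, 7671 to 8693 in LTlate and 7646 to 8574 in BMTGMP. Without Mki67, left out after its values were seen, the other 16 summed to 4991 to 6015 in wtGMP, 2791 to 4310 in LTearly, 3725 to 4675 in LTlate and 4648 to 5574 in BMTGMP. On that sum LTearly and LTlate lay below wtGMP in every library, and BMTGMP overlapped it. Of the 17, 8 fell in LTearly (beside 8.93% of all genes tested), 2 in LTlate (beside 3.25%) and 0 in BMTGMP (beside 2.17%). At an unadjusted p under 0.05, 15 were lower and 0 higher in LTearly, 5 lower and 1 higher in LTlate, and 2 lower and 1 higher in BMTGMP. The part of these genes in the results for the 37 was not tested. The 8 were Bub1, Birc5 and all of Mcm2 to Mcm7, the subunits of the replicative helicase, with Mcm2 at -1.26 ± 0.19, adjusted p = 1.97e-05, while Mki67 was not called (0.24 ± 0.14, adjusted p = 0.235). The Mcm4 call was lost without wtGMP library 1 (adjusted p 0.0855), 3 (0.0704) or 4 (0.0647) and without LTearly library 1 (0.0581) or 3 (0.0796), and with only the compared groups in the fit (0.0505), with the transcripts of a gene summed (0.0561) or with LTearly 3 and 4 both left out (0.162). In LTlate the Mcm2 call was lost without LTlate library 2 (0.0685) or 3 (0.0796). Gene counts per library ran from 2469470 to 15093009, and each LTlate library was deeper than any library of wtGMP. Each of the 4 LTearly libraries had a higher mean rank correlation with the LTlate libraries than with the other LTearly libraries. With LTearly libraries 3 and 4 both left out, 22 of the 37 genes fell in LTearly against wtGMP.

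**Figure D2:**
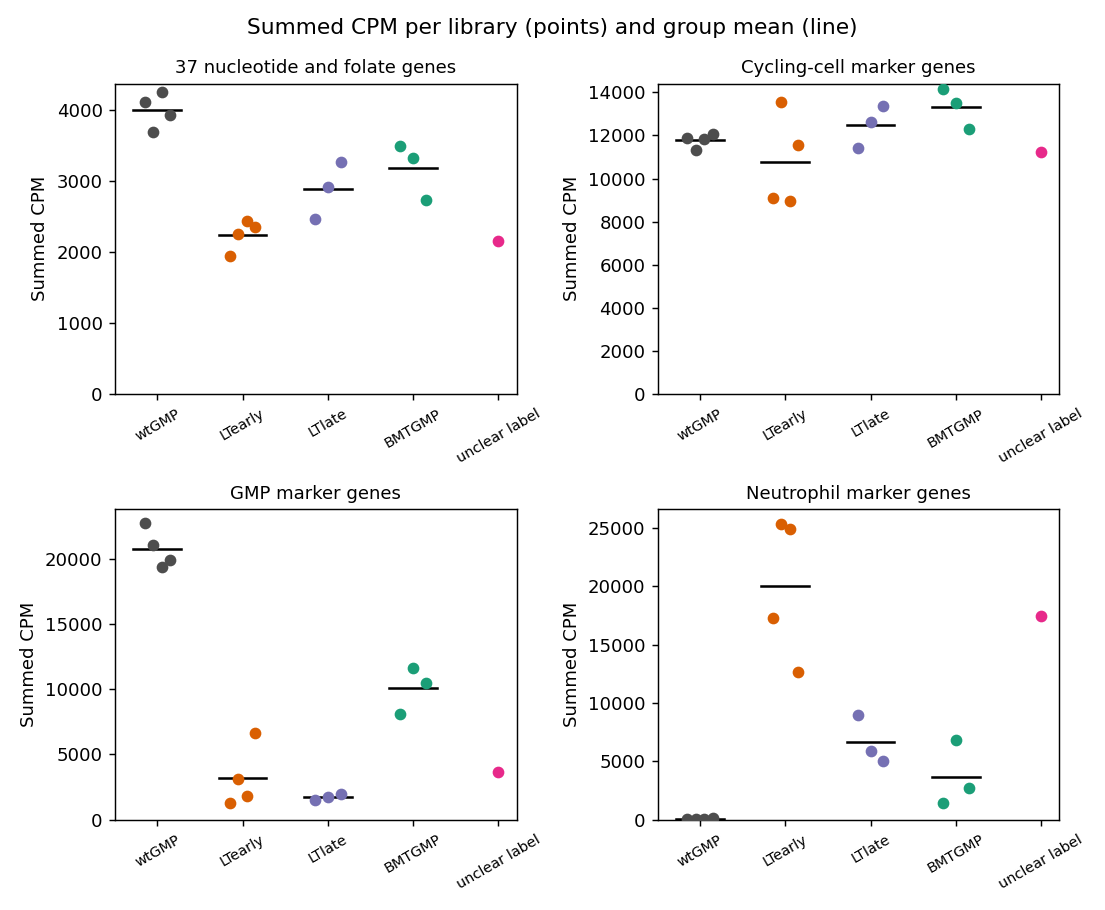
Summed CPM (vertical axes, from 0) of the 37 genes, of 17 cycling-cell genes, of 8 progenitor markers and of 10 neutrophil markers. Points are libraries, black lines are group means, and the last column is the library whose title and column name disagree. The 37 genes sum to at least 3697 in each wtGMP library and to at most 2439 in each LTearly library.

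Summed over the 37 genes, CPM was 3697 to 4258 in wtGMP, 1943 to 2439 in LTearly, 2471 to 3267 in LTlate and 2728 to 3495 in BMTGMP. No library of another group reached the lowest wtGMP sum, and no LTearly library reached the lowest LTlate sum. Per kilobase of transcript, the most abundant of the 37 in wtGMP were Adss at 135.8 ± 24.2 CPM per kb and Rrm1 at 131.4 ± 12.5 (SD, n = 4 each), which did not differ beyond their spread. Paics at 96.6 ± 19.7 and Dut at 75.6 ± 9.49 came next, and these also overlapped within their SD. Ampd3 was the least abundant in wtGMP, at 0.606 ± 0.328 CPM per kb, below Dhodh at 7.73 ± 0.415.

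Promoter sequence was read because these genes moved together and because CACGTG, the E-box, is the element bound by the MYC family, known regulators of nucleotide synthesis. RefSeq windows on GRCm38.p6, from 250 bases before to 50 bases after each annotated start, were available for 35 of the 37 genes. A gene with several starts has several windows and so more chances of a match. The 27025 genes with a window, all genes in this paragraph, are not limited to the 14542 genes tested. On either strand, CACGTG was in a window of 7 of the 35 genes (20%), namely Paics, Atic, Impdh2, Tyms, Dtymk, Nme1 and Ampd3, and of 8.09% of the 27025 genes with a window. Ampd3 rose in LTearly and the others fell, beside 25 of all 37 genes (67.6%) that fell there. A link between the motif and these changes was not tested. The E-box is shown for 3 of these genes, chosen because Tyms and Nme1 fell in LTearly and LTlate while Ampd3 rose in every comparison with wtGMP. Paics also fell in LTearly and LTlate, but the stretch around its E-box overlaps an exon and is not printed. Each line runs 5′ to 3′ on the strand of the gene, and the capitals mark the E-box.
Tyms, chr5:30073654-30073713, minus strand: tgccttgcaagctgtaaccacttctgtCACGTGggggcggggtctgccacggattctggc
Nme1, chr11:93968026-93968081, minus strand: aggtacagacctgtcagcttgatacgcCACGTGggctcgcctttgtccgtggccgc
Ampd3, chr7:110772499-110772558, plus strand: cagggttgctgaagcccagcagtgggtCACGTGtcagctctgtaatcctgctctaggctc
The motif began 61 bases before the start in Tyms, 29 in Nme1 and 78 in Ampd3, counted from the RefSeq start of each window. Nme1 and Ampd3 have more than 1 such start, and Nme1 has a further E-box 18 bases before another start, not printed. The printed Nme1 and Ampd3 stretches lie inside the annotated gene, downstream of its outermost start at chr11:93968272 for Nme1 and chr7:110767790 for Ampd3. The GC box GGGCGG was in a window of 27 of the 35 genes (77.1%, beside 38.2% of all genes), and CCAAT was in 14 (40%, beside 41.1%). The E2F-type motif TTTCCCGC was in 2, Prps2 and Ppat (5.71%, beside 1.24%), and TTTGGCGC was in 0 (beside 0.585%). All were searched on both strands, and none of these motifs contains another. A match describes these letters in this window only, and its absence says nothing about a factor.

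PRPP supply comes first in the route. The 2 PRPP synthetases, Prps1 and Prps2, both fell in LTearly and neither was called in LTlate or BMTGMP. Prps2 was at 59.9, 81.7, 31.3 and 49.3 CPM in wtGMP libraries 1 to 4, 16.8, 15.9, 29.2 and 14.8 in LTearly 1 to 4, 22, 25.9 and 33.3 in LTlate 2 to 4 and 33.5, 25.6 and 35.1 in BMTGMP 1, 2 and 4. LTearly lay below wtGMP throughout, with LTearly 3 close under the lowest wtGMP library, while LTlate and BMTGMP overlapped wtGMP. The log2 change was -1.54 ± 0.33, adjusted p = 0.00108 in LTearly, -1.03 ± 0.35, adjusted p = 0.0579 in LTlate and -0.82 ± 0.35, adjusted p = 0.191 in BMTGMP. Prps1 changed by -1.01 ± 0.35, adjusted p = 0.0371 in LTearly. That call was lost without wtGMP library 2 (adjusted p 0.0654), 3 (0.0531) or 4 (0.109) and without LTearly library 2 (0.113) or 4 (0.067). It was also lost with DESeq2 (0.0541), with DESeq2's size factors in edgeR (0.0556), with only the compared groups in the fit (0.082), with the transcripts of a gene summed (0.0572) and with LTearly 3 and 4 both left out (0.0544).

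All 6 enzymes of the purine ring fell in LTearly (log2 -1.93 to -1.05), 3 fell in LTlate and 2 in BMTGMP, where all 6 were lower at an unadjusted p under 0.05. In this route Ppat commits PRPP to purines, Gart and Pfas carry out the early ring steps, and Paics, Adsl and Atic complete the ring to IMP. Gart, a 3-activity enzyme, was at 155, 129, 258 and 171 CPM in wtGMP, 36.7, 46.5, 66.5 and 81.3 in LTearly, 65.3, 61.4 and 82.4 in LTlate and 106, 83.3 and 74.4 in BMTGMP. All 10 libraries outside wtGMP were below the lowest wtGMP library, and the LTearly, LTlate and BMTGMP ranges overlapped each other. The changes were -1.62 ± 0.25, adjusted p = 2.4e-05 in LTearly, -1.36 ± 0.27, adjusted p = 0.000906 in LTlate and -1.02 ± 0.27, adjusted p = 0.0163 in BMTGMP. The BMTGMP call was lost without wtGMP library 3 (adjusted p 0.103) or BMTGMP library 2 (0.0684) or 4 (0.113).

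Adsl, adenylosuccinate lyase, acts in the ring and again in the step to AMP. It was at 76.8, 105, 70.8 and 70.2 CPM in wtGMP, 27.97, 17.8, 19 and 20.97 in LTearly, 32.9, 46.7 and 31.2 in LTlate and 45.5, 40.7 and 16.3 in BMTGMP. Every wtGMP library was above every other library, and every LTlate library was above every LTearly library, while BMTGMP library 4 was the lowest of all. Its log2 change was -1.91 ± 0.31, adjusted p = 4.47e-05 in LTearly, -1.13 ± 0.33, adjusted p = 0.0216 in LTlate and -1.23 ± 0.33, adjusted p = 0.0181 in BMTGMP. The LTlate call was lost without wtGMP library 2 (adjusted p 0.084) or LTlate library 2 (0.122) or 4 (0.115), and the BMTGMP call without wtGMP library 2 (0.0728) or BMTGMP library 4 (0.188).

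Pfas, which adds a ring nitrogen, was at 102, 128, 92.5 and 98.7 CPM in wtGMP, 21.7, 17.5, 19 and 50.5 in LTearly, 38.7, 43.5 and 81.2 in LTlate and 62.4, 69.8 and 66.8 in BMTGMP. LTearly libraries 1 to 3 were far below wtGMP and LTearly 4 was higher, within the LTlate range. The change was -1.93 ± 0.30, adjusted p = 3.46e-05 in LTearly. In LTlate it was -0.95 ± 0.32, adjusted p = 0.0564, and in BMTGMP -0.66 ± 0.32, adjusted p = 0.249, although every library of both groups was below wtGMP. Paics, a 2-activity enzyme, was at 276, 209, 188 and 287 CPM in wtGMP, 76.9, 103, 125 and 146 in LTearly, 102, 126 and 156 in LTlate and 192, 150.2 and 117 in BMTGMP. Its LTearly and LTlate libraries were all below wtGMP, and BMTGMP library 1 reached the wtGMP range. Paics changed by -1.08 ± 0.22, adjusted p = 0.00048 in LTearly and -0.91 ± 0.23, adjusted p = 0.00956 in LTlate, and the latter was lost without LTlate library 2 (adjusted p 0.106). In BMTGMP it was not called (-0.64 ± 0.23, adjusted p = 0.103). Ppat (-1.13 ± 0.32, adjusted p = 0.0127) and Atic (-1.05 ± 0.24, adjusted p = 0.00169) fell in LTearly only among the called comparisons with wtGMP, and Atic was near wtGMP in LTlate (-0.17 ± 0.25, adjusted p = 0.773). The Ppat and Paics genes overlap by 277 bases, and whether counting used strand is not given in the sources used here, so reads in that stretch cannot be told apart.

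From IMP the route splits. Adss, together with Adsl, makes AMP, while Impdh1 or Impdh2 and then Gmps make GMP. Of these 4 genes, 2 fell in LTearly (all 4 were lower at an unadjusted p under 0.05), 1 fell in LTlate and 1 in BMTGMP. Impdh2, the IMP dehydrogenase of dividing cells, was at 127, 112, 132 and 118 CPM in wtGMP, 44.3, 49.7, 69.04 and 70.9 in LTearly, 63.5, 73.1 and 98.6 in LTlate and 98.3, 99.7 and 62.2 in BMTGMP. All libraries outside wtGMP were below it, with LTearly libraries 1 and 2 the lowest. The change was -1.06 ± 0.22, adjusted p = 0.000936 in LTearly, -0.64 ± 0.24, adjusted p = 0.0911 in LTlate and -0.49 ± 0.24, adjusted p = 0.256 in BMTGMP.

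Impdh1, the second IMP dehydrogenase, is described after its values were seen, because it fell furthest in BMTGMP. It was at 74.7, 65.2, 77.5 and 97.4 CPM in wtGMP, 6.57, 18.9, 23.4 and 46.98 in LTearly, 20.8, 23.1 and 22.3 in LTlate and 6.50, 0 and 1.25 in BMTGMP. BMTGMP was below every other library, and no group overlapped wtGMP. The change was -4.82 ± 0.97, adjusted p = 0.00903 in BMTGMP, and the call was lost without BMTGMP library 4 (log2 -4.48, adjusted p 0.0783). In LTearly it was -1.70 ± 0.73, adjusted p = 0.128 and in LTlate -1.83 ± 0.81, adjusted p = 0.194. Impdh1 was called lower in LTearly with DESeq2, with only the compared groups in the fit or without LTearly library 4. In LTlate it was called lower with only the compared groups in the fit. The ratio of Impdh2 to Impdh1 CPM was 1.21 to 1.71 in wtGMP, 1.51 to 6.74 in LTearly and 3.06 to 4.42 in LTlate. In BMTGMP it was 15.1 in library 1 and 49.7 in library 4, and it has no value in library 2, where Impdh1 had no count.

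Gmps, GMP synthetase, was at 198, 179, 136 and 131 CPM in wtGMP, 114, 92.4, 56.99 and 89.2 in LTearly, 62.8, 109 and 110.1 in LTlate and 136, 118 and 81.03 in BMTGMP. LTearly and LTlate were below wtGMP in every library, and BMTGMP library 1 was within the wtGMP range. It changed by -0.86 ± 0.24, adjusted p = 0.00851 in LTearly, -0.78 ± 0.25, adjusted p = 0.0486 in LTlate and -0.53 ± 0.25, adjusted p = 0.252 in BMTGMP. The LTearly call was lost with LTearly libraries 3 and 4 both left out (adjusted p 0.0738). The LTlate call was lost without wtGMP library 1 (adjusted p 0.144), 2 (0.112) or 3 (0.0546) and without LTlate library 2 (0.329), 3 (0.0722) or 4 (0.0639), with a filter of 1 CPM in 3 libraries (0.0538) and with transcripts summed (0.0958). Adss was not called in LTearly (-0.46 ± 0.19, adjusted p = 0.0832), where all its libraries were below wtGMP, and in LTlate it stood at 0.42 ± 0.20, adjusted p = 0.202. It was called lower in LTearly with no low-count filter, without LTearly library 4 or with the library of unclear stage counted as LTearly.

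Pyrimidine synthesis runs from Cad, which carries its first 3 activities, through Dhodh in the mitochondrion to Umps, which makes UMP, and Ctps or Ctps2 then make CTP. Of the 5 genes, 3 fell in LTearly, 1 fell in LTlate and 0 fell in BMTGMP, where 1 was lower at an unadjusted p under 0.05 and DESeq2 called 0. Cad was at 87.4, 127, 135 and 103 CPM in wtGMP, 32.6, 35.1, 52.97 and 37.95 in LTearly, 67.2, 65.8 and 78.4 in LTlate and 55.5, 76.1 and 78.95 in BMTGMP. Every library outside wtGMP was below it, and every LTearly library was below every LTlate and BMTGMP library. The change was -1.51 ± 0.23, adjusted p = 2.29e-05 in LTearly, -0.68 ± 0.24, adjusted p = 0.0748 in LTlate and -0.68 ± 0.24, adjusted p = 0.0997 in BMTGMP.

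Umps was at 172, 134, 189 and 166 CPM in wtGMP, 59.8, 61.1, 52.97 and 74.97 in LTearly, 43.3, 81.7 and 83.5 in LTlate and 153, 107 and 118 in BMTGMP. LTearly and LTlate were below both wtGMP and BMTGMP in every library, and BMTGMP overlapped wtGMP. It fell in LTearly (-1.40 ± 0.22, adjusted p = 3.1e-05) and in LTlate (-1.25 ± 0.24, adjusted p = 0.000598) and was not called in BMTGMP (-0.39 ± 0.23, adjusted p = 0.367). Ctps fell in LTearly (-1.05 ± 0.25, adjusted p = 0.00313), while its paralog Ctps2 was near wtGMP in all groups, with log2 changes of -0.18, -0.20 and -0.14 in LTearly, LTlate and BMTGMP and none called. The difference between these paralogs was not tested. Dhodh was measured on 98 counts over the LTearly libraries and 272 over wtGMP, and was not called in LTearly (-1.43 ± 0.57, adjusted p = 0.0765) although its groups did not overlap there. It was called lower there with DESeq2, without LTearly library 3 or with LTearly 3 and 4 both left out.

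**Figure D3:**
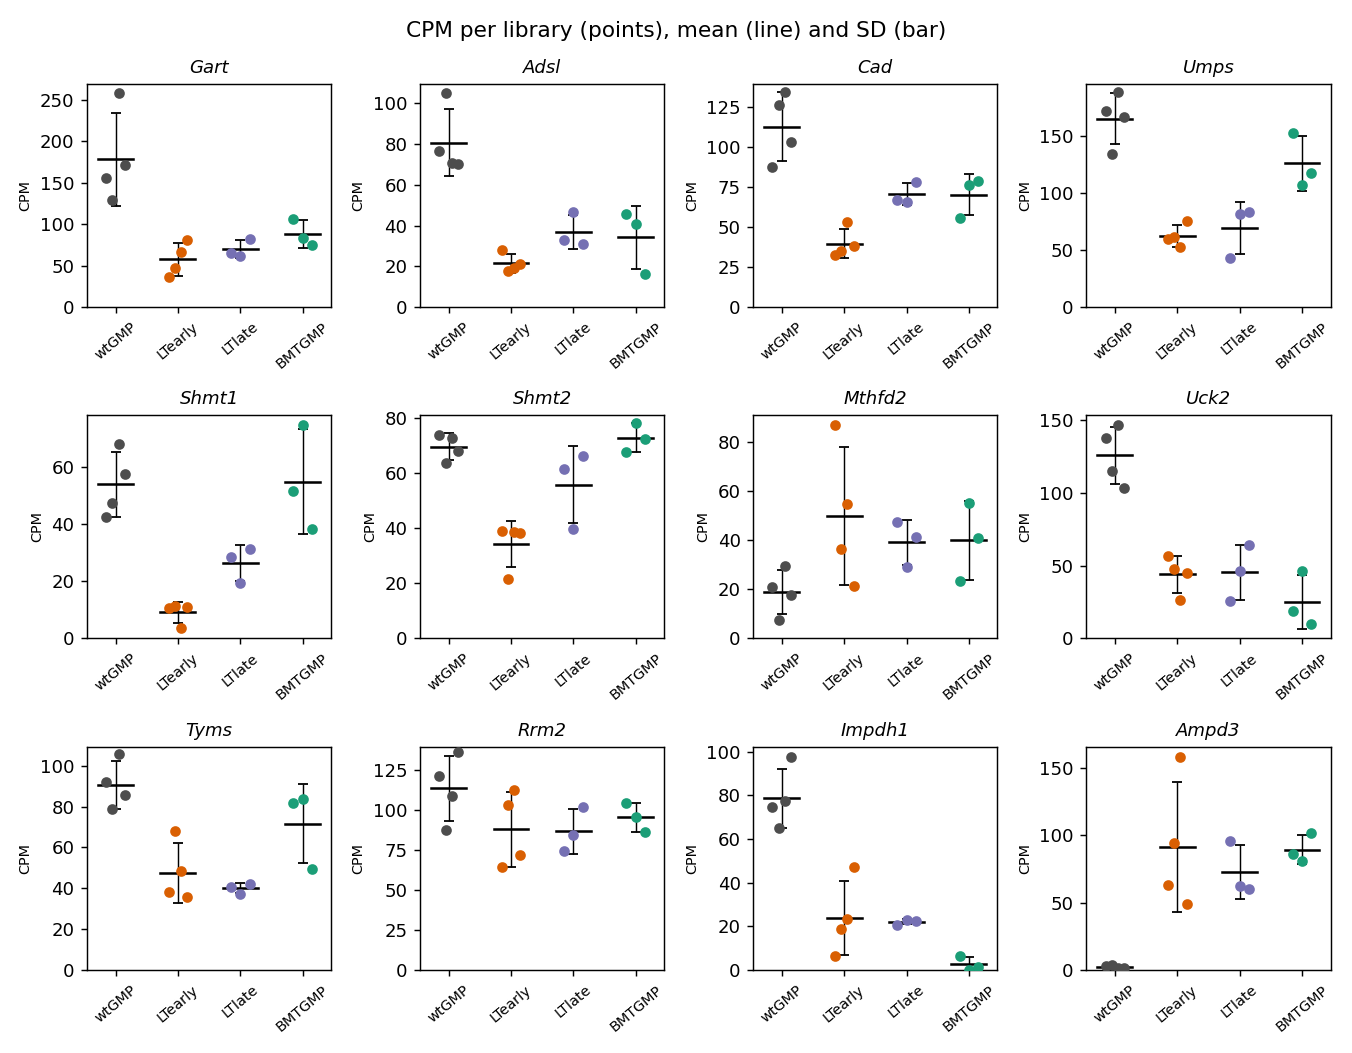
CPM (vertical axes, from 0) of 12 of the genes in each library, with points for libraries and black lines for group means and bars for the SD between libraries. Gart, Adsl and Uck2 sit below wtGMP in every other library, Shmt1 is low in LTearly and spans the wtGMP range in BMTGMP, Rrm2 overlaps throughout, and Ampd3 is near 0 in wtGMP alone.

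Folate enzymes move single carbons between serine and the purine and thymidylate routes. Shmt1 and Mthfd1 act in the cytosol, and Shmt2, Mthfd2 and Mthfd1l in the mitochondrion. In LTearly 4 of the 5 fell and Mthfd2 rose, in LTlate 1 fell, and in BMTGMP 0 fell, where 0 were lower and 1 higher at an unadjusted p under 0.05 and DESeq2 called 0. Shmt1, cytosolic serine hydroxymethyltransferase, was at 42.7, 47.5, 68.3 and 57.6 CPM in wtGMP, 10.7, 11.4, 3.65 and 11.01 in LTearly, 28.7, 19.3 and 31.4 in LTlate and 51.7, 74.7 and 38.4 in BMTGMP. LTearly was the lowest group and did not overlap any other, LTlate was below wtGMP and BMTGMP, and BMTGMP spanned wtGMP. The change was -2.52 ± 0.35, adjusted p = 5.85e-06 in LTearly, -1.03 ± 0.36, adjusted p = 0.0631 in LTlate and 0.03 ± 0.35, adjusted p = 0.991 in BMTGMP.

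Shmt2, the mitochondrial counterpart, was at 74.1, 63.7, 72.99 and 68.01 CPM in wtGMP, 38.9, 21.8, 38.7 and 38.3 in LTearly, 61.4, 39.95 and 66.4 in LTlate and 67.9, 78.3 and 72.5 in BMTGMP. LTearly was below all other libraries and BMTGMP was at the wtGMP level. Shmt2 changed by -1.01 ± 0.25, adjusted p = 0.00346 in LTearly and was not called in LTlate (-0.32 ± 0.26, adjusted p = 0.508) or BMTGMP (0.06 ± 0.26, adjusted p = 0.951). Mthfd1, the cytosolic 3-activity enzyme, was at 169.8, 122, 171 and 119 CPM in wtGMP, 42.1, 58.4, 77.5 and 52.1 in LTearly, 48.96, 84.4 and 101 in LTlate and 117, 151 and 114 in BMTGMP. LTearly and LTlate were below wtGMP and BMTGMP in every library. Mthfd1 changed by -1.34 ± 0.24, adjusted p = 0.000136 in LTearly, -0.90 ± 0.25, adjusted p = 0.0198 in LTlate and -0.19 ± 0.25, adjusted p = 0.77 in BMTGMP. The LTlate call was lost without wtGMP library 1 (adjusted p 0.0647) or 3 (0.0687) and without LTlate library 2 (0.219) or 3 (0.0548).

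Mthfd2, the mitochondrial dehydrogenase, went the other way and is described after its values were seen. It was at 20.9, 7.47, 29.3 and 17.7 CPM in wtGMP, 86.8, 36.4, 54.8 and 21.4 in LTearly, 47.3, 29.3 and 41.1 in LTlate and 23.4, 55.2 and 40.9 in BMTGMP. LTearly library 1 was the highest of all, and each group overlapped wtGMP. The change was 1.39 ± 0.41, adjusted p = 0.0181 in LTearly, and the call was lost without wtGMP library 2 (adjusted p 0.0529) or 4 (0.0553) or LTearly library 1 (0.102). It was 1.04 ± 0.43, adjusted p = 0.14 in LTlate and 1.06 ± 0.43, adjusted p = 0.172 in BMTGMP. The ratio of Mthfd2 to Shmt2 CPM was 0.117 to 0.402 in wtGMP, 0.560 to 2.23 in LTearly, 0.618 to 0.769 in LTlate and 0.345 to 0.704 in BMTGMP, so that BMTGMP alone overlapped wtGMP. Mthfd1l, which releases formate, changed by -0.61 ± 0.20, adjusted p = 0.0332 in LTearly, with overlapping groups. That call was lost without wtGMP library 2 (0.0851), 3 (0.0719) or 4 (0.0615) and without LTearly library 1 (0.0876), 2 (0.104) or 4 (0.0508). It was also lost with DESeq2 (0.051), with DESeq2's size factors in edgeR (0.0586) and with only the compared groups in the fit (0.0785).

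Deoxynucleotide supply includes the ribonucleotide reductase subunits Rrm1 and Rrm2, thymidylate synthase (Tyms), thymidylate kinase (Dtymk), dUTPase (Dut) and the salvage kinases Tk1 and Dck. Of these 7, 4 fell in LTearly, 1 fell in LTlate and 0 in BMTGMP, where 0 had an unadjusted p under 0.05 and DESeq2 called 0. Tyms, which makes dTMP from dUMP and folate, was at 92.1, 78.6, 106 and 85.7 CPM in wtGMP, 38.2, 67.98, 48.2 and 35.96 in LTearly, 40.7, 37.2 and 42 in LTlate and 81.8, 83.7 and 49.5 in BMTGMP. LTearly and LTlate were below wtGMP, and LTlate was below BMTGMP in every library. Tyms changed by -0.93 ± 0.25, adjusted p = 0.007 in LTearly, -1.18 ± 0.27, adjusted p = 0.00351 in LTlate and -0.34 ± 0.26, adjusted p = 0.54 in BMTGMP. The LTearly call was lost with LTearly libraries 3 and 4 both left out (adjusted p 0.0546).

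Dut, which keeps uracil out of DNA, was at 137, 164, 162 and 127 CPM in wtGMP, 53.99, 87.6, 79.6 and 70.6 in LTearly, 75.5, 95.2 and 107 in LTlate and 164, 189 and 104 in BMTGMP. LTearly and LTlate were below wtGMP, and BMTGMP spanned it. The change was -1.01 ± 0.21, adjusted p = 0.000888 in LTearly, -0.67 ± 0.23, adjusted p = 0.0586 in LTlate and 0.05 ± 0.23, adjusted p = 0.955 in BMTGMP. Dtymk, which phosphorylates dTMP, was at 56.02, 42.4, 41.4 and 48.1 CPM in wtGMP, 24.6, 20.7, 32.9 and 26.1 in LTearly, 25.3, 41.3 and 37.2 in LTlate and 57.2, 60.1 and 50.96 in BMTGMP. Again LTearly and LTlate were below wtGMP, and also below BMTGMP. Dtymk changed by -0.85 ± 0.27, adjusted p = 0.0241 in LTearly, and that call was lost without wtGMP library 1 (adjusted p 0.0745) or LTearly library 2 (0.068). It was -0.44 ± 0.29, adjusted p = 0.364 in LTlate and 0.25 ± 0.28, adjusted p = 0.712 in BMTGMP.

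The reductase subunits gave different calls. Rrm1, the large subunit, fell in LTearly (-0.75 ± 0.17, adjusted p = 0.00238), and its libraries were below wtGMP in all 3 groups. Rrm2, the subunit made in S phase, overlapped wtGMP in every group and was not called (-0.37 ± 0.21, adjusted p = 0.235 in LTearly). The ratio of Rrm2 to Rrm1 CPM was 0.193 to 0.240 in wtGMP, 0.203 to 0.396 in LTearly, 0.220 to 0.247 in LTlate and 0.220 to 0.239 in BMTGMP. These ranges overlap. Tk1 and Dck were not called, with LTearly log2 changes of -0.61 for Tk1 and 0.35 for Dck.

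Among the 3 salvage enzymes, Hprt and Uck2 fell in all 3 comparisons with wtGMP and Aprt fell in none. Uck2, uridine-cytidine kinase, was at 138, 116, 147 and 104 CPM in wtGMP, 56.7, 47.8, 26.7 and 45.3 in LTearly, 25.8, 46.4 and 63.98 in LTlate and 18.95, 46.2 and 10.02 in BMTGMP. Every wtGMP library was above every other library, and BMTGMP libraries 1 and 4 were the lowest. The change was -1.51 ± 0.37, adjusted p = 0.00639 in LTearly, -1.47 ± 0.41, adjusted p = 0.0227 in LTlate and -2.32 ± 0.43, adjusted p = 0.00142 in BMTGMP. The LTearly call was lost with LTearly libraries 3 and 4 both left out (adjusted p 0.085). In LTlate it was lost without wtGMP library 3 (0.062) or LTlate library 2 (0.131) or 3 (0.0902).

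Hprt, which recovers hypoxanthine and guanine and activates mercaptopurine, was at 158, 45.97, 38.5 and 38.9 CPM in wtGMP, 14.1, 13.01, 11.3 and 27.9 in LTearly, 16.1, 15.3 and 13.7 in LTlate and 19.2, 9.19 and 32.8 in BMTGMP. No group overlapped wtGMP, but wtGMP library 1 stood far above the other 3. The change was -2.07 ± 0.47, adjusted p = 0.00313 in LTearly, -2.24 ± 0.52, adjusted p = 0.00655 in LTlate and -1.80 ± 0.52, adjusted p = 0.0382 in BMTGMP. Without wtGMP library 1 it was -1.29 (adjusted p 0.0351) in LTearly, -1.46 (0.0459) in LTlate and -1.02 (0.236) in BMTGMP. The BMTGMP call was also lost without BMTGMP library 1 (0.139) or 2 (0.154), with only the compared groups in the fit (0.129) and with transcripts summed (0.0607). Aprt, which recovers adenine, stood at 0.35 ± 0.34, adjusted p = 0.538 in LTearly and 0.84 ± 0.36, adjusted p = 0.155 in LTlate, where every library was above wtGMP. The ratio of Hprt to Aprt CPM was 1.02 to 5.29 in wtGMP, 0.314 to 0.952 in LTearly, 0.266 to 0.366 in LTlate and 0.153 to 1.85 in BMTGMP.

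Nucleoside diphosphate kinases make the triphosphates, and of the 3 kinases listed Nme1 and Nme2 fell in LTearly and Cmpk1 did not (0.28 ± 0.21, adjusted p = 0.375). Nme1 was at 65.3, 63.3, 111 and 42.7 CPM in wtGMP, 18.7, 22.04, 43.1 and 16.5 in LTearly, 16.7, 35.4 and 29.2 in LTlate and 59.8, 39.9 and 44.5 in BMTGMP. LTlate was below wtGMP throughout, and LTearly library 3 just reached the lowest wtGMP library. Nme1 changed by -1.50 ± 0.34, adjusted p = 0.00182 in LTearly, -1.38 ± 0.37, adjusted p = 0.0123 in LTlate and -0.55 ± 0.36, adjusted p = 0.42 in BMTGMP, and the LTlate call was lost without wtGMP library 3 (adjusted p 0.0817) or LTlate library 2 (0.114).

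Nme2 was at 59.03, 56.97, 86.9 and 61.1 CPM in wtGMP, 17.02, 22.04, 31.1 and 37.8 in LTearly, 37.8, 43.8 and 34.4 in LTlate and 42.4, 21.1 and 29.2 in BMTGMP. All 10 libraries outside wtGMP were below it. Nme2 changed by -1.28 ± 0.30, adjusted p = 0.0024 in LTearly, -0.77 ± 0.32, adjusted p = 0.132 in LTlate and -1.09 ± 0.32, adjusted p = 0.0381 in BMTGMP. The BMTGMP call was lost without wtGMP library 1 (adjusted p 0.0553), 3 (0.144) or 4 (0.0611) and without BMTGMP library 2 (0.208) or 4 (0.162). The ratio of Nme1 to Nme2 CPM was 0.700 to 1.27 in wtGMP, 0.437 to 1.39 in LTearly, 0.442 to 0.849 in LTlate and 1.41 to 1.89 in BMTGMP, where every library was above every wtGMP library. The genes are close paralogs that lie 2668 bases apart. Up to 100 hits were kept per read, and values were not whole in 9 of 15 libraries for Nme2 and in 0 for Nme1. How the counting placed reads shared by near-identical copies is otherwise not given in the sources used here.

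Ampd3, an AMP deaminase that turns AMP back into IMP, rose in every comparison with wtGMP. It was at 3.30, 3.93, 1.12 and 1.58 CPM in wtGMP, 63.5, 94.5, 158 and 49.3 in LTearly, 95.9, 62.7 and 60.1 in LTlate and 85.9, 80.9 and 102 in BMTGMP. The lowest library outside wtGMP, at 49.3 CPM, was far above the highest wtGMP library, at 3.93 CPM, and the other groups overlapped each other. The log2 change was 5.20 ± 0.41, adjusted p = 1.67e-09 in LTearly, 4.88 ± 0.41, adjusted p = 1e-08 in LTlate and 5.17 ± 0.42, adjusted p = 7.58e-09 in BMTGMP. The 4 wtGMP libraries held 43 Ampd3 counts together. Ampd2, its paralog, was not called in any of the 3 (-0.50, -0.07 and 0.35). The ratio of Ampd3 to Ampd2 CPM was 0.0227 to 0.0926 in wtGMP, 1.25 to 6.46 in LTearly, 0.942 to 2.07 in LTlate and 1.07 to 1.74 in BMTGMP.

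**Figure D4:**
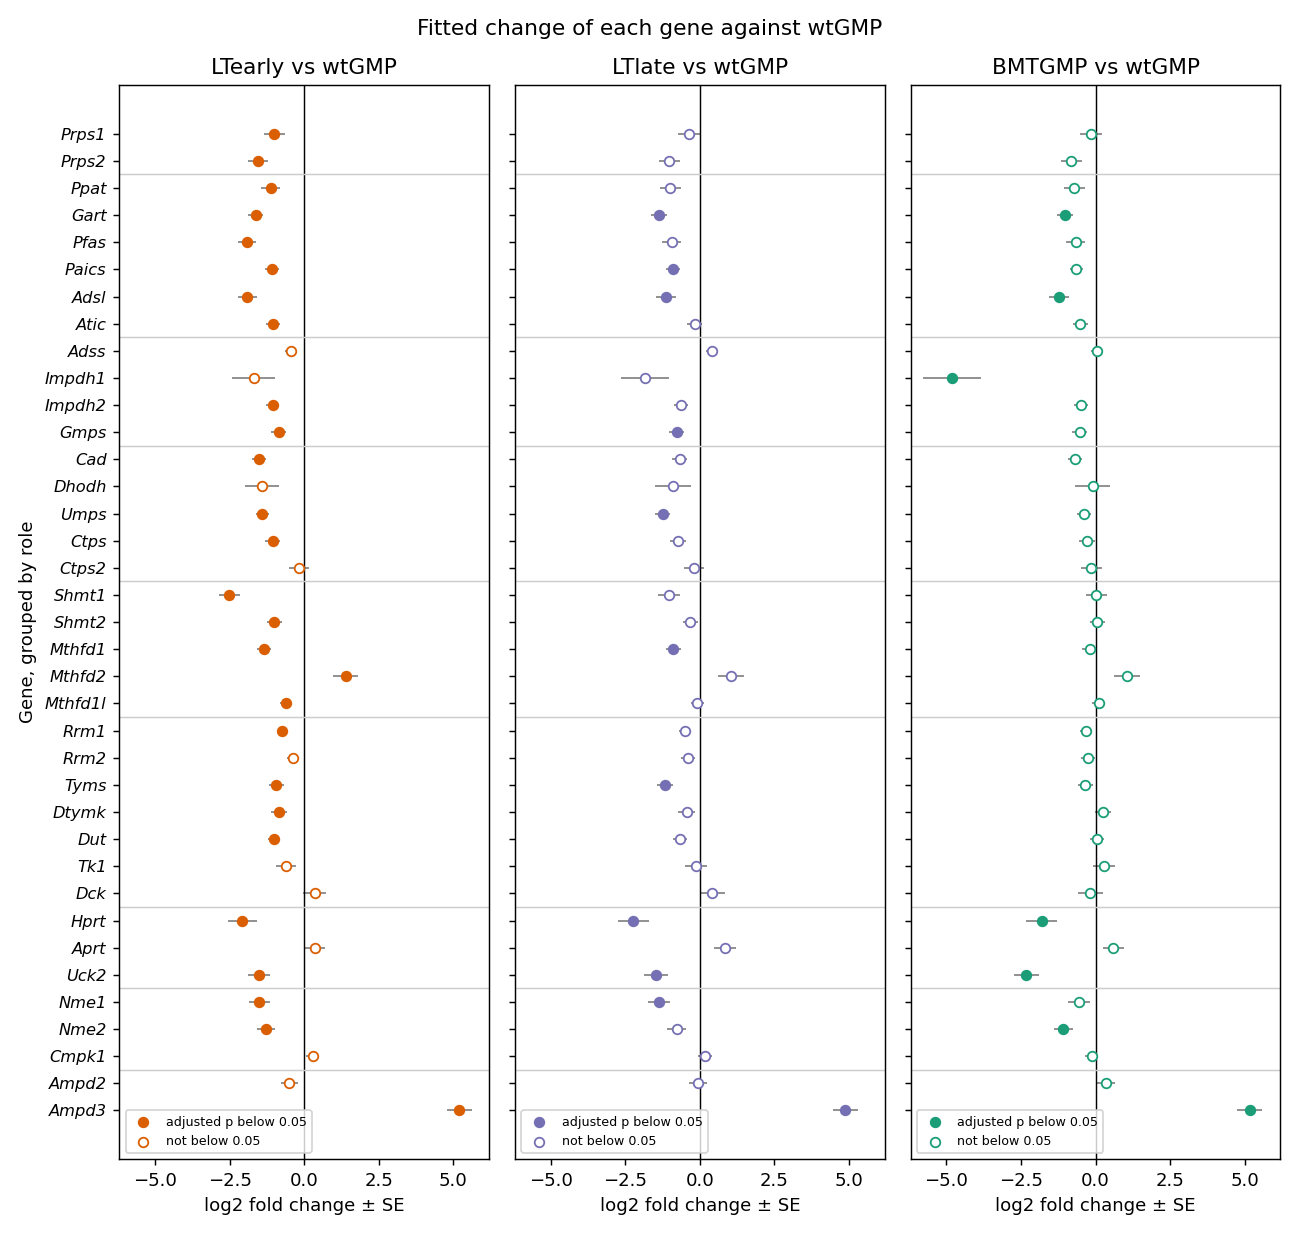
Log2 change against wtGMP (horizontal axis) of each of the 37 genes in LTearly, LTlate and BMTGMP, with bars for 1 standard error and filled points for adjusted p under 0.05. Most LTearly points lie left of 0, with Shmt1 at -2.52, and Ampd3 lies between 4.88 and 5.20 in all 3.

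Between LTearly and BMTGMP, 9 of the 37 genes were called lower in LTearly (24.3%, beside 2.81% of all genes tested) and 0 higher (0%, beside 3.4%). At an unadjusted p under 0.05, 23 were lower and 1 higher, and DESeq2 called 8 lower and 1, Impdh1, higher. The median log2 difference of the 37 was -0.59, with 0.10 for all genes. Folate enzymes made up 4 of the 9, namely Shmt1 (-2.55 ± 0.36, adjusted p = 7.19e-05), Mthfd1 (-1.15 ± 0.25, adjusted p = 0.0049), Shmt2 (-1.08 ± 0.26, adjusted p = 0.0113) and Mthfd1l (-0.71 ± 0.22, adjusted p = 0.0489). Dut (-1.06 ± 0.23, adjusted p = 0.00389) and Dtymk (-1.11 ± 0.28, adjusted p = 0.018) belong to thymidine and dUTP handling, Umps (-1.01 ± 0.23, adjusted p = 0.00745) and Cad (-0.82 ± 0.24, adjusted p = 0.0393) to pyrimidine synthesis, and Pfas (-1.26 ± 0.32, adjusted p = 0.0149) to the purine ring. Apart from Mthfd1l, these genes did not overlap between the groups, which is likely for genes called on these same libraries. Cad lost its call without LTearly library 1 (adjusted p 0.0819) or 2 (0.0857) or BMTGMP library 2 (0.117) or 4 (0.106). Dtymk lost it without BMTGMP library 1 (0.0553) or 2 (0.0615), and Umps without BMTGMP library 1 (0.0544). Mthfd1l lost it without LTearly library 1 (0.114), 2 (0.127) or 4 (0.0655) and without BMTGMP library 1 (0.16), 2 (0.0571) or 4 (0.062). With only these 2 groups in the fit, 4 of the 37 were called lower, and Pfas (adjusted p 0.0904), Shmt2 (0.0635), Dtymk (0.0632), Cad (0.145) and Mthfd1l (0.179) were not. Cad was also not called with DESeq2's size factors in edgeR (0.0624) or with transcripts summed (0.0566), and Mthfd1l not with DESeq2 (0.063), with those size factors (0.0834) or with transcripts summed (0.0503). Of the 17 cycling-cell genes, 6 were also called lower in LTearly than in BMTGMP (beside 2.81% of all genes tested), among them Mcm2, Mcm3 and Bub1. Their part in the result was not tested.

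Between LTearly and LTlate, 0 of the 37 genes were called lower (0%, beside 0.0894% of all genes) and 0 higher (0%, beside 0.117%). At an unadjusted p under 0.05, 8 were lower in LTearly and 0 higher, and DESeq2 called 2 lower, Adss and Shmt1, and 0 higher. The median difference was -0.34, with 0.11 for all genes. The nearest to a call were Adss (-0.88 ± 0.20, adjusted p = 0.0566) and Shmt1 (-1.50 ± 0.36, adjusted p = 0.0686), both with no overlap between the groups.

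Between LTlate and BMTGMP, 0 of the 37 were called lower in LTlate (0%, beside 0.461% of all genes) and 0 higher (0%, beside 1.52%). At an unadjusted p under 0.05, 7 were lower and 1 higher, and DESeq2 called Umps lower and Impdh1 higher. The median difference was -0.25, with -0.06 for all genes. Umps stood at -0.86 ± 0.25, adjusted p = 0.0728, with LTlate below BMTGMP in every library, and Impdh1 at 2.99 ± 0.92, adjusted p = 0.17.

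A further 73 genes of these routes, chosen for their functions, were read beside the 37, and 63 of the 73 passed the filter. Against wtGMP, 10 of the 63 fell in LTearly (15.9%, beside 8.93% of all genes) and 5 rose (7.94%, beside 11.1%). In LTlate 3 fell (4.76%, beside 3.25%) and 3 rose (4.76%, beside 7.53%), and in BMTGMP 1 fell (1.59%, beside 2.17%) and 1 rose (1.59%, beside 4.41%). The LTlate and BMTGMP shares that fell were near those of all genes. The median log2 change of the 63 was -0.46 in LTearly, -0.24 in LTlate and -0.16 in BMTGMP, beside 0.22, 0.00 and 0.07 for all genes. The 3 enzymes of serine synthesis supply the main source of single carbons, and 2 of them fell in LTearly and 1 in LTlate and BMTGMP. Phgdh, its first enzyme, was at 93.1, 133, 101 and 81.9 CPM in wtGMP, 22.4, 2.66, 29.2 and 6.56 in LTearly, 5.62, 4.35 and 3.10 in LTlate and 5.95, 11.3 and 2.92 in BMTGMP. Every wtGMP library was well above every other library. Phgdh changed by -2.77 ± 0.58, adjusted p = 0.00273 in LTearly, -4.55 ± 0.70, adjusted p = 0.000446 in LTlate and -3.91 ± 0.68, adjusted p = 0.00178 in BMTGMP. Psat1, the next enzyme, fell in LTearly (-0.97 ± 0.28, adjusted p = 0.0118) and stood at 0.26 ± 0.29, adjusted p = 0.666 in LTlate and -0.07 ± 0.29, adjusted p = 0.954 in BMTGMP.

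Of 16 tested genes of folate uptake and the folate cycle, 2 fell and 1 rose in LTearly, and 0 were called in LTlate or BMTGMP. At an unadjusted p under 0.05, 1 was lower and 1 higher in LTlate, and 0 lower and 1 higher in BMTGMP. Mtr, methionine synthase, fell in LTearly (-0.77 ± 0.20, adjusted p = 0.00548). Aldh1l2, a mitochondrial enzyme that oxidizes formyl folate, had no count in wtGMP and was at 22.4, 0, 14.6 and 3.16 CPM in LTearly. The LTearly mean was at least 57.1-fold higher than the level that 3 counts over the wtGMP group would give, and LTearly library 2 also had no count.

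Of 11 tested genes of purine salvage and breakdown, 1 fell and 3 rose in LTearly, 0 fell and 3 rose in LTlate, and 0 fell and 1 rose in BMTGMP. Gda, guanine deaminase, was at 270.2, 220.0, 223 and 174 CPM in wtGMP, 632, 588, 1283 and 559 in LTearly, 854, 607 and 509 in LTlate and 409, 374 and 314 in BMTGMP. All libraries outside wtGMP were above it, with BMTGMP the nearest. Gda changed by 1.79 ± 0.24, adjusted p = 2.39e-05 in LTearly and 1.56 ± 0.25, adjusted p = 0.00029 in LTlate. Xdh, xanthine dehydrogenase, which makes uric acid, was at 92.99, 65.6, 71.2 and 112 CPM in wtGMP, 135, 327, 556 and 253 in LTearly, 410.4, 301 and 177 in LTlate and 84.6, 55.9 and 88.6 in BMTGMP. LTearly and LTlate were above wtGMP and BMTGMP, which overlapped. Xdh rose in LTearly (1.89 ± 0.39, adjusted p = 0.00405) and in LTlate (1.79 ± 0.41, adjusted p = 0.0129), the latter call being lost without LTlate library 2 (adjusted p 0.0661). Nt5e, the cell-surface 5′-nucleotidase Cd73, rose in all 3 comparisons (4.07 ± 1.01, adjusted p = 0.00651 in LTearly, 4.86 ± 1.06, adjusted p = 0.00401 in LTlate and 4.75 ± 1.06, adjusted p = 0.00685 in BMTGMP), with counts in 1 wtGMP library only. Adk, adenosine kinase, was the gene that fell in LTearly (-1.80 ± 0.61, adjusted p = 0.0347). Its call was lost without wtGMP library 1 (0.0569), 2 (0.0851) or 3 (0.0795) or LTearly library 1 (0.0886), 2 (0.0666) or 3 (0.0736), or with only the compared groups in the fit (0.0577).

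**Figure D5:**
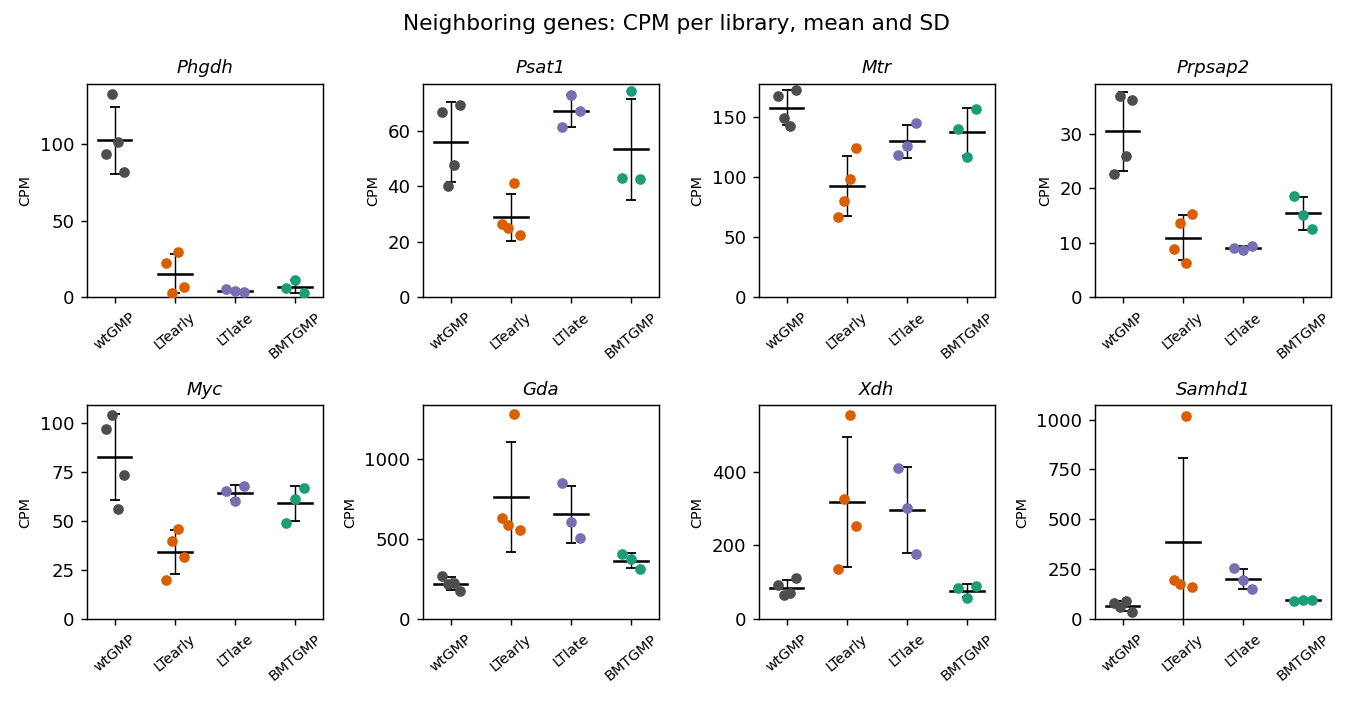
CPM (vertical axes, from 0) of 8 further genes of these routes in each library, with points for libraries and black lines for group means and bars for the SD between libraries. Phgdh is high in wtGMP alone, Myc is lowest in LTearly, and Gda and Xdh are higher in LTearly and LTlate than in wtGMP.

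In the other lists, of 6 genes of deoxynucleotide control 1 rose in LTearly and 0 were called in LTlate, where 0 were lower and 2 higher at an unadjusted p under 0.05. That gene was Samhd1, which degrades dNTPs and inactivates cytarabine, at 79.5, 62.1, 89.8 and 33.9 CPM in wtGMP, 197, 177, 1019 and 159 in LTearly, 253, 197 and 152 in LTlate and 90.9, 95.1 and 93.8 in BMTGMP. LTearly library 3 was far above the rest, and all LTearly and LTlate libraries were above wtGMP. Samhd1 changed by 2.54 ± 0.62, adjusted p = 0.0145 in LTearly and 1.59 ± 0.63, adjusted p = 0.159 in LTlate. The LTearly call was lost with only the compared groups in the fit (adjusted p 0.0516). Of 11 tested kinases and PRPP synthetase partners, 4 fell in LTearly and 2 in LTlate. Prpsap2, a partner of the PRPP synthetases, fell in LTearly (-1.45 ± 0.41, adjusted p = 0.0113) and LTlate (-1.74 ± 0.45, adjusted p = 0.0105), the latter lost without LTlate library 2 (adjusted p 0.0628) or 3 (0.0603). Prpsap1 fell in LTearly (-1.29 ± 0.39, adjusted p = 0.0183), lost without wtGMP library 1 (0.0645) or with LTearly 3 and 4 both left out (0.0895). Nme4, a mitochondrial nucleoside diphosphate kinase, fell in LTearly (-2.08 ± 0.68, adjusted p = 0.0287), lost without wtGMP library 3 (0.0947) or 4 (0.0718), without LTearly library 1 (0.0717) or 2 (0.0692) and with only the compared groups in the fit (0.0618). The fourth was Guk1, guanylate kinase (-1.74 ± 0.62, adjusted p = 0.0464), whose call was lost without any 1 of 7 of these 8 libraries, the exception being LTearly library 3. Ak4, a mitochondrial adenylate kinase, was the other that fell in LTlate (-3.84 ± 1.17, adjusted p = 0.0323), a call lost without any 1 of these 7 libraries other than wtGMP library 4 (0.0669 to 0.137). The 9 tested genes of pyrimidine salvage and breakdown gave 0 calls in LTearly by edgeR, with 2 lower and 1 higher at an unadjusted p under 0.05. The 5 nucleoside transporters also gave 0, with 1 lower at that level.

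Myc belongs to the family whose proteins bind the E-box motif, and binding was not measured here. Myc was at 97, 104, 55.97 and 73.7 CPM in wtGMP, 19.7, 39.8, 45.7 and 31.8 in LTearly, 65.3, 60.2 and 67.7 in LTlate and 48.95, 61.3 and 66.6 in BMTGMP. Every LTearly library was below every wtGMP, LTlate and BMTGMP library, while LTlate and BMTGMP overlapped wtGMP. Myc fell in LTearly (-1.27 ± 0.27, adjusted p = 0.000817) and was not called in LTlate (-0.36 ± 0.28, adjusted p = 0.476) or BMTGMP (-0.49 ± 0.28, adjusted p = 0.348). Its part in the levels of the 37 genes was not tested.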

How the data were processed

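RNA of sorted mouse bone marrow cells was measured in 15 libraries by RNA-seq. The authors made libraries with a low-input ScriptSeq kit, sequenced them on a HiSeq 2000 and counted reads on RefSeq transcripts, per the labels' protocols; Bowtie 0.9.9.1 and mm9 are named per the submitters' processing notes. The deposited table gives expected counts, since 13.7% of its values are not whole (tolerance 1e-06). Values were rounded. Transcripts were given symbols from RefSeq and GENCODE mouse release M21 (26092 of 28847), and the transcript of highest mean count was kept per gene. Counts without a symbol were 3.51% to 4.16% of a library and stayed out. Of 16 value columns, 1 matches no sample and was not used.

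edgeR 4.0.16 (R 4.3.3) fitted 14 libraries together with filterByExpr, TMM and a robust quasi-likelihood test; the library of unclear stage was left out. Standard errors are the log2 change divided by the root of F. The common coefficient of variation between replicates was 0.748, total table counts were 3487772 to 21462900 per library, and 0 of 105 library pairs held identical counts. The code was tested on simulated counts. DESeq2 1.42.0, other scalings and filters, summed transcripts, the replicate block and each library left out were alternatives. The 4 Ctps2 transcripts held 327, 327, 327 and 316 counts in wtGMP library 1, so summing can count a read more than once. Genes given with every library's value were called in more than 1 comparison with wtGMP or in any comparison between LTearly, LTlate and BMTGMP. The gene of smallest p against wtGMP in each role was added. Of all these, the genes of smallest p were kept, with the exceptions named in the text. For the further lists the rule was up to 3 called genes each. The 37 genes, the lists and the tests were chosen with earlier results of these data known. Of the further lists, 1 gene that this rule selects is not reported here.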

Additional observations from a re-analysis of the deposited data

Results flagged for a closer look

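Single libraries stood far from the rest of their group in 7 of the 74 sets of a gene and a group of 4 that were examined (Dixon's criterion at 95%, which chance alone meets in about 1 of 20 sets). In LTearly, Prps2 was highest in library 3, at 29.2 CPM, and Pfas was highest in library 4, at 50.5 CPM. Shmt1 was lowest in LTearly library 3, at 3.65 CPM, and Shmt2 was lowest in LTearly library 2, at 21.8 CPM. Hprt, the hypoxanthine and guanine salvage enzyme, stood apart in both groups, with wtGMP library 1 at 158 CPM and LTearly library 4 at 27.9 CPM. Nme2 was highest in wtGMP library 3, at 86.9 CPM.

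The library whose title says LTearly and whose column says LTlate entered no comparison. In it 27 of the 37 genes were below every wtGMP library, 8 were within the wtGMP range, and Aprt and Ampd3 were above it. Ampd3 was at 167.6 CPM there, above the libraries of every group.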

How the results depend on the processing

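Over all 6 comparisons the 54 calls of these genes were refitted 920 times under alternatives; 827 refits kept direction and call, 93 kept direction and lost the call, and 0 reversed. Under every alternative run, 28 of the 54 calls held, among them all 6 purine ring calls in LTearly. Of 198 recounts of the numbers of called genes, 170 stayed within 1.5 times. That total includes counts of 0 that stayed 0, as in all 18 recounts of genes higher in LTearly than in LTlate.

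LTlate against wtGMP moved most: 10 lower became 18 with DESeq2, 19 with the library of unclear stage counted as LTlate and 21 with only the groups compared in the fit, where 2 were higher. The genes added by DESeq2 were Cad, Ctps, Dut, Impdh2, Pfas, Prps2, Rrm1 and Shmt1. With only the groups compared in the fit, Paics and Pfas were also called lower in BMTGMP. Leaving out 1 library gave 4 to 10 lower. LTearly against wtGMP gave 1 to 2 higher, and BMTGMP against wtGMP 2 to 5 lower, when 1 library was left out. For LTearly against LTlate, the lower count was 2 with DESeq2, 3 with no low-count filter, 2 with a filter of 1 CPM in 3 libraries, 2 with the unclear library counted as LTearly, 5 with LTearly 3 and 4 both left out (chosen after seeing the data), and 0 to 3 when 1 library was left out. LTearly against BMTGMP gave 4 lower with only the groups compared, and 1 higher with DESeq2 or with the unclear library counted as LTearly (0 to 2 when 1 library was left out). LTlate against BMTGMP gave 1 lower and 1 higher with DESeq2, 1 lower with the unclear library counted as LTlate, and 0 to 1 higher when 1 library was left out. With the unclear library counted in, Hprt was no longer called in LTearly (log2 -1.09, adjusted p 0.314) or LTlate (-0.98, 0.45). The cause of these moves was not tested, beyond the change in libraries or genes that each alternative makes.

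Same-numbered libraries of different groups were no more alike than others in their departures from the group means. The 18 same-numbered pairs correlated at -0.160 to 0.115, and 55 others at -0.157 to 0.143. With so few libraries per group, this cannot show that the replicate numbers do not pair the samples. With the replicate block, genes lower were 25, 11, 4, 0, 10 and 0 in LTearly, LTlate and BMTGMP against wtGMP, LTearly against LTlate and BMTGMP, and LTlate against BMTGMP. Under the block, Gmps (adjusted p 0.137) and Uck2 (0.0831) lost their LTlate calls. Gart (0.053) and Nme2 (0.0895) lost their BMTGMP calls.

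Over all genes, the alternatives gave 187 (without LTlate library 2) to 979 (only the groups compared) lower for LTlate against wtGMP, beside 473, and 167 (without BMTGMP library 4) to 546 (DESeq2) for BMTGMP against wtGMP, beside 315. LTearly against wtGMP gave 1032 to 1542 lower, beside 1299. LTearly against LTlate gave 0 (unclear library counted as LTlate) to 141 (without LTearly library 4) lower, beside 13, and 0 to 178 (DESeq2) higher, beside 17. LTearly against BMTGMP gave 140 (only the groups compared) to 663 (without LTearly library 4) lower, beside 409, and 267 to 962 (DESeq2) higher, beside 494. LTlate against BMTGMP gave 32 to 191 lower, beside 67, and 123 to 378 higher, beside 221, with the lowest counts without LTlate library 2 and the highest with DESeq2. Depth limits low genes most: Impdh1 rests on few counts in BMTGMP and Ampd3 on 43 in wtGMP.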

Other observations

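In the library whose title and column name disagree, the summed CPM of the 37 genes was 2159, within the LTearly range and below every library of the other groups. Against LTearly, 27 of the 37 genes were within the group's range, 5 below and 5 above, namely Adsl, Shmt1, Hprt, Ampd2 and Ampd3. Against LTlate, 11 were within, 20 below and 6 above, and against BMTGMP 10 were within, 23 below and 4 above. Hprt was at 99.7 CPM there, between wtGMP library 1 and the other wtGMP libraries. The neutrophil markers summed to 17490 CPM and the progenitor markers to 3656 CPM in the same library.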
